A study of Homo sapiens with 4 samples.

Results

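The genes described here are 10 members of the IL7 receptor pathway and its surroundings, namely the receptor chains IL7R and IL2RG, the kinases JAK1 and JAK3, the transcription factors STAT5A and STAT5B, the STAT5 target genes PIM1, CISH and SOCS2, and the receptor tyrosine kinase gene FLT3. They were chosen by symbol and found by Ensembl ID, and all 10 were among the 43450 genes listed. The measurements were gene levels from sequencing of polyadenylated RNA in BLaER1 cells, a human B cell leukaemia line with an inducible transgene for C/EBPα, the factor that can turn these cells into macrophage-like cells. One group was 2 libraries of cells given 3 LNA GapmeRs, antisense oligonucleotides that direct RNase H to the long non-coding RNA HAL7, placed in the medium with no transfection. The other group was 2 control libraries of the same line in the same medium; the labels give the same treatment text for both groups, and what the control cells received, how long treatment lasted and whether the transgene was induced are not stated. Both groups are a single cell line, and nothing says that replicates 0 and 1 were separate cultures, so p-values speak only of how far these 4 libraries vary, and that variation may be technical.

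IL7 is a survival and growth factor of B cell precursors. It binds IL7R, the chain that recognises the ligand, and IL2RG, the common gamma chain that several cytokine receptors share. JAK1 sits on the IL7R chain and JAK3 on the gamma chain; together they phosphorylate STAT5A and STAT5B, which then move to the nucleus and switch on genes such as PIM1, a survival kinase, and CISH and SOCS2, which feed back to dampen cytokine signalling. FLT3 is a receptor tyrosine kinase of early progenitors that acts beside IL7R in early B cell development and is a common target of activating mutations in acute leukaemia.

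Levels are in FPKM, fragment numbers corrected for transcript length and for library size, and 12902 to 12974 genes reached 1 FPKM. Low values came in even steps, which gives the relative depth. Control replicate 0 was the shallowest, and the relative depth of the other libraries was 1.77 and 1.58 in knockdown replicates 0 and 1 and 2.08 in control replicate 1. HAL7, the targeted RNA, stood at 0.475 and 0.347 FPKM in knockdown replicates 0 and 1, against 0.726 and 0.613 FPKM in control replicates 0 and 1. The groups did not overlap, at a ratio of means of 0.614, but the difference did not pass limma's test, with an adjusted p of 0.32. That test adds 1 to each value before taking log2, which shrinks changes at levels this low, here to a log2 change of -0.24. HAL7 lay under the mean of 1 FPKM asked of other genes, so the test result does not measure how far HAL7 fell. All 13 B cell and pre-B markers on a fixed list were at a mean of 1 FPKM or more, with sums of 4385 and 4372 FPKM in knockdown libraries and 4528 and 4537 FPKM in control libraries. Of 12 T and NK markers found, 3 were at a mean of 1 FPKM or more (ZAP70, NKG7 and LCK) and 3 were listed at 0 throughout (CD3D, CD3G and CD2), and the list summed to 129 and 122 FPKM in knockdown libraries and 141 and 143 FPKM in control libraries. Of 10 monocyte and macrophage markers, 3 were at a mean of 1 FPKM or more (CSF1R, CSF3R and CD68), while CD14 and LYZ reached at most 0.186 FPKM, and the sums were 41.5 and 44.0 FPKM in knockdown libraries and 44.6 and 43.7 FPKM in control libraries.

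None of the 10 genes differed between knockdown and control past the test, and the differences seen were small. All 10 had a mean of at least 1 FPKM and were tested, with limma on log2(FPKM + 1) fitted to 12935 genes. At an adjusted p of 0.05, 0 of the 10 were called, beside 4 of all genes tested (0.0309%). At an unadjusted limma p under 0.05 there were 3, IL2RG, STAT5A and SOCS2, all on the lower side in knockdown libraries, where 9.35% of all genes lay, and 0 on the higher side, where 7.25% lay. With 1 library left out, the log2 change ranged between -0.21 and -0.13 in IL2RG, between -0.16 and -0.13 in STAT5A and between -0.31 and -0.16 in SOCS2. With all libraries, the log2 changes of the 10 genes ran from -0.24 to 0.08, with 7 negative and 3 positive. Their median was -0.10, against a median of -0.009 over all tested genes. With the GC trend removed, a setting described below, these medians were -0.072 and 0.002. With 1 library left out, the median of the 10 genes ranged between -0.125 and -0.067. In 6 of the 10 both knockdown values lay below both control values, where 27.7% of all tested genes did so, and in 0 of the 10 both lay above, where 22.5% did. An exact two-sided permutation test of 2 libraries against 2 cannot give a p below 0.333. In bulk RNA, fewer cells of a type and less RNA per cell cannot be told apart.

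**Figure D1:**
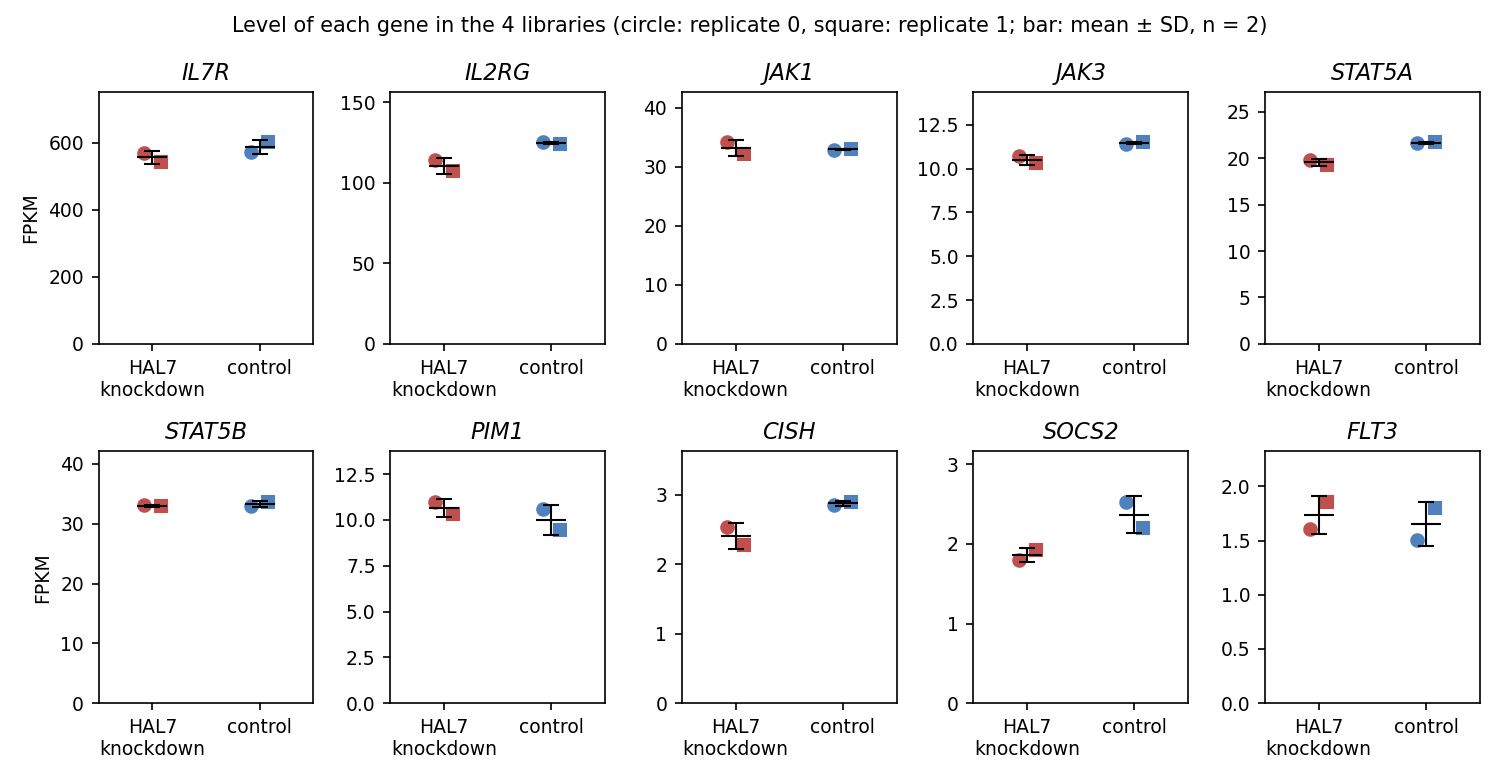
Level in FPKM (y axis, from 0, own scale per gene) of the 10 genes in 2 HAL7 knockdown libraries (left, red) and 2 control libraries (right, blue), with circles for replicate 0, squares for replicate 1 and bars for mean ± SD. The groups did not overlap for IL7R, IL2RG, JAK3, STAT5A, CISH and SOCS2, with knockdown lower, and overlapped for JAK1, STAT5B, PIM1 and FLT3.

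At the RNA level, IL7R and IL2RG were high in this line, and CISH, SOCS2 and the receptor gene FLT3 were low. By mean FPKM over the 4 libraries, which is a level per length of transcript, the order was IL7R at 571, IL2RG at 118, STAT5B at 33.2, JAK1 at 33.0, STAT5A at 20.6, JAK3 at 11.0, PIM1 at 10.3, CISH at 2.64, SOCS2 at 2.11 and FLT3 at 1.70. IL7R lay at percentile 98.8 of tested genes by level and IL2RG at percentile 95.1, while CISH, SOCS2 and FLT3 lay at percentiles 14.3, 10.9 and 7.80. Neighbours in this order whose ranges over the 4 libraries overlapped were STAT5B and JAK1, JAK3 and PIM1, CISH and SOCS2, and SOCS2 and FLT3. The other neighbours were apart in every library.

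Among the receptor chains, IL7R was at 570.1 and 542 FPKM in knockdown replicates 0 and 1, against 573 and 601 FPKM in control replicates 0 and 1. The knockdown values lay below both control values, yet knockdown replicate 0 and control replicate 0 were nearly the same. The ratio of means was 0.947, and the log2 change of -0.08 ± 0.06 (SE) had a 95% interval of -0.22 to 0.06 and a limma adjusted p of 0.53. IL7R (ENSG00000168685.10, chromosome 5, 35852695 to 35879603 on GRCh38, plus strand) is protein-coding, as are the other 9. Without knockdown replicate 1 it was -0.042 and without control replicate 1 it was -0.043. T cells also carry IL7R. These libraries are of a single B cell leukaemia line, in which CD3D, CD3G and CD2 were listed at 0. CD3E reached at most 0.0133 FPKM, while ZAP70, NKG7 and LCK were at a mean of 1 FPKM or more. The part of the T and NK markers in the values of IL7R was not tested.

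IL2RG gave the smallest p of the set. It stood at 114 and 107 FPKM in knockdown replicates 0 and 1, against 125 and 124 FPKM in control replicates 0 and 1. Both knockdown values lay below both control values, as they did in 27.7% of all tested genes. Knockdown libraries differed from each other by more than the controls did, with means of 110.5 ± 4.49 FPKM in knockdown and 125 ± 0.464 FPKM in control (SD, n = 2 each). The means had a ratio of 0.887, and the log2 change was -0.17 ± 0.05 (SE), with a 95% interval of -0.30 to -0.05, an unadjusted limma p of 0.015 and an adjusted p of 0.22. IL2RG (ENSG00000147168.7) spans 71107404 to 71112108 of chromosome X on GRCh38 and HAL7 spans 71183559 to 71198175, both on the minus strand, with 71.5 kb between them. In that stretch lie 2 other tested genes, and whether the distance bears on the values of IL2RG was not tested. The level of IL2RG relative to IL7R was 0.199 and 0.198 in knockdown libraries and 0.218 and 0.207 in control libraries. These ratios did not overlap, and how often such ratios do so over all genes was not tested.

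Neither kinase of the receptor passed the test. JAK1 (ENSG00000162434.7, chromosome 1, 64833229 to 64966504, minus strand), the kinase that binds IL7R, had 34.1 and 32.2 FPKM in knockdown replicates 0 and 1, against 32.8 and 33.0 FPKM in control replicates 0 and 1. The control values lay between the knockdown values, and the log2 change of 0.01 ± 0.05 (SE) had a 95% interval of -0.12 to 0.14 and was -0.030 without knockdown replicate 0. JAK3 (ENSG00000105639.13, chromosome 19, 17824780 to 17848071, minus strand), which pairs with the gamma chain, had 10.7 and 10.3 FPKM in knockdown replicates 0 and 1, against 11.4 and 11.5 FPKM in control replicates 0 and 1. Both knockdown values were below both controls, at a mean ratio of 0.918 and a log2 change of -0.11 ± 0.06 (SE; 95% interval -0.25 to 0.03), with a limma adjusted p of 0.37. With the trend of log2 changes on GC content removed, a setting described below, the log2 change of JAK3 was -0.06, and its unadjusted limma p was 0.37.

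STAT5A and STAT5B are neighbouring genes on chromosome 17, in opposite orientation, and their products are close relatives. STAT5A (ENSG00000126561.9, plus strand, 42287547 to 42311943) stood at 19.8 and 19.3 FPKM in knockdown replicates 0 and 1, against 21.6 and 21.7 FPKM in control replicates 0 and 1. Replicates were close in each group and the groups apart, at a mean ratio of 0.902 and a log2 change of -0.14 ± 0.05 (SE; 95% interval -0.27 to -0.02), with an unadjusted limma p of 0.033 and an adjusted p of 0.26. STAT5B (ENSG00000173757.4, minus strand, 42199168 to 42276707) had 33.1 and 32.9 FPKM in knockdown replicates 0 and 1, against 33.0 and 33.7 FPKM in control replicates 0 and 1. These values overlapped, and the log2 change of -0.01 ± 0.05 (SE) had a 95% interval of -0.13 to 0.11; it was 0.002 without control replicate 1 and 0.010 with the GC trend removed. The level of STAT5A relative to STAT5B was 0.597 and 0.587 in knockdown libraries and 0.656 and 0.645 in control libraries, and the summed level of both genes was 52.9 and 52.2 FPKM in knockdown libraries and 54.6 and 55.4 FPKM in control libraries. With the GC trend removed, the log2 change of STAT5A was -0.09, with an unadjusted limma p of 0.14.

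How fragments were divided between STAT5A and STAT5B bears on these values, because the genes share sequence. In the longest coding sequences of GENCODE 29, of 2385 bases in STAT5A and 2364 in STAT5B, an identical run of 429 bases stretches from coding base 564 to 992 in both. Of all windows of 100 bases, 16.2% in the coding sequence of STAT5A also occurred in that of STAT5B, and of windows of 50 bases 21.7% did. The lines below show where the run starts and ends, in coding strand order, since a fragment inside it cannot be assigned to either gene. Capitals mark the first and the last 40 bases of the run, and lower case the 20 bases outside it, which include the first base that differs.
STAT5A, start: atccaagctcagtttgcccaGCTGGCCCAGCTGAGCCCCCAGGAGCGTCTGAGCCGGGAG
STAT5B, start: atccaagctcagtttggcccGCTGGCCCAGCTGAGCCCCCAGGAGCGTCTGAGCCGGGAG
STAT5A, end: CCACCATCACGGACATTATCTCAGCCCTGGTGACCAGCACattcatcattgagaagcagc
STAT5B, end: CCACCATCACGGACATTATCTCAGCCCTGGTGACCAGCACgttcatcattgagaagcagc
Whether the split moved with the knockdown was not tested.

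None of the 3 STAT5 target genes PIM1, CISH and SOCS2 passed the test. PIM1 (ENSG00000137193.8, chromosome 6, 37170203 to 37175426, plus strand) had 11.0 and 10.3 FPKM in knockdown replicates 0 and 1, against 10.6 and 9.44 FPKM in control replicates 0 and 1. The groups overlapped, and the log2 change was 0.08 ± 0.07 (SE; 95% interval -0.10 to 0.26), with a limma adjusted p of 0.64. Without control replicate 1, the lower control library, it was 0.001, without control replicate 0 it was 0.15, and without knockdown replicate 0 it was 0.035. With the GC trend removed it was 0.12.

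CISH (ENSG00000114737.11, chromosome 3, 50606490 to 50611831, minus strand), an SH2 domain protein induced by STAT5 that blocks cytokine receptors, had 2.54 and 2.27 FPKM in knockdown replicates 0 and 1, against 2.85 and 2.90 FPKM in control replicates 0 and 1. Both knockdown values lay below both control values, at a mean ratio of 0.836 and a log2 change of -0.19 ± 0.08 (SE; 95% interval -0.38 to 0.01), with an unadjusted limma p of 0.057 and an adjusted p of 0.32. Adding 1 to values this low understates the change: with 0.1 added instead, the log2 change was -0.25. SOCS2 (ENSG00000120833.8, chromosome 12, 93569814 to 93583487, plus strand), a relative of CISH and a feedback inhibitor of growth hormone and cytokine receptors, stood at 1.80 and 1.92 FPKM in knockdown replicates 0 and 1, against 2.53 and 2.20 FPKM in control replicates 0 and 1. SOCS2 had the lowest ratio of the set, 0.785, and a log2 change of -0.24 ± 0.09 (SE; 95% interval -0.45 to -0.02), with an unadjusted limma p of 0.036 and an adjusted p of 0.27; with 0.1 added in place of 1 the log2 change was -0.33. Without control replicate 0 it was -0.16. The shallowest library is thus the one with the highest SOCS2 value; the part of depth was not tested.

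The depth behind these low genes sets their precision. Over the longest annotated coding transcript, CISH values stood for about 591 and 472 fragments in knockdown libraries and 374 and 796 in control libraries, and SOCS2 values for about 721 and 689 in knockdown libraries and 573 and 1042 in control libraries. In the shallowest case counting alone gives an SD of 5.17% for CISH and 4.18% for SOCS2, and this covers counting error only. CISH shares 218 exon bases (4.26% of its exons) with MAPKAPK3 on the opposite strand, and SOCS2 shares 277 (4.09%) with SOCS2-AS1. Counting by strand is not stated, so fragments in those stretches cannot be told apart; MAPKAPK3 stood at 20.2 and 22.5 FPKM in knockdown libraries and 22.8 and 21.9 FPKM in control libraries.

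The upstream sequences of CISH and PIM1 are shown because both are STAT5 target genes, and their windows differ in the motif to which STAT5 binds. STAT5 dimers bind the palindrome TTCNNNGAA, which reads the same on both strands, so 1 search covers both. RefSeq promoter windows (GRCh38.p14) of 300 bases, from 250 before to 50 after an annotated start, were at hand for 9 of the 10 genes. The gene without a window was SOCS2, also a STAT5 target, and whether the motif bears on the differences between groups was not tested. Of 13 windows of these 9 genes, the motif occurred in 1, that of CISH, with 4 matches; over all 35116 windows, 7.66% held at least 1 match and 0.0199% at least 4. Capitals mark the matches, whose first bases lie at -241, -230, -129 and -112 from the start of CISH and which do not overlap.
CISH, chr3:50611725-50612024, minus strand: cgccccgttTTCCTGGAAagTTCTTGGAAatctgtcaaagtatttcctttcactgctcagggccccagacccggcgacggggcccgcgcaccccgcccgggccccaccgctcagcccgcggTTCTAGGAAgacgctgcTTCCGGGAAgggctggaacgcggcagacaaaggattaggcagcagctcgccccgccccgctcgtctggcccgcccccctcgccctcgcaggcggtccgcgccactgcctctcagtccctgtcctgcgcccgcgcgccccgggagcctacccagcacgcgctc
PIM1, chr6:37169902-37170201, plus strand: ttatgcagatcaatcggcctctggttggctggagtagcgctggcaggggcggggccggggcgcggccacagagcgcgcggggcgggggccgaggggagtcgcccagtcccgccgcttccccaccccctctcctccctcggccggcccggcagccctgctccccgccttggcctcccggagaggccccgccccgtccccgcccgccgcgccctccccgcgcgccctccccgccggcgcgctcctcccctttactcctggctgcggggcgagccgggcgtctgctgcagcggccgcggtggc
A match is a description of letters and not a binding site, and the window of PIM1 holds no such letters.

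FLT3 (ENSG00000122025.10, chromosome 13, 28003274 to 28100592, minus strand) was the lowest of the 10, with 1.61 and 1.86 FPKM in knockdown replicates 0 and 1, against 1.51 and 1.80 FPKM in control replicates 0 and 1. In each group replicate 1 was the higher one, and the groups overlapped. The log2 change was 0.04 ± 0.10 (SE; 95% interval -0.20 to 0.28), with a limma adjusted p of 0.86, and it turned negative without knockdown replicate 1, at -0.023, and without control replicate 0, at -0.036.

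**Figure D2:**
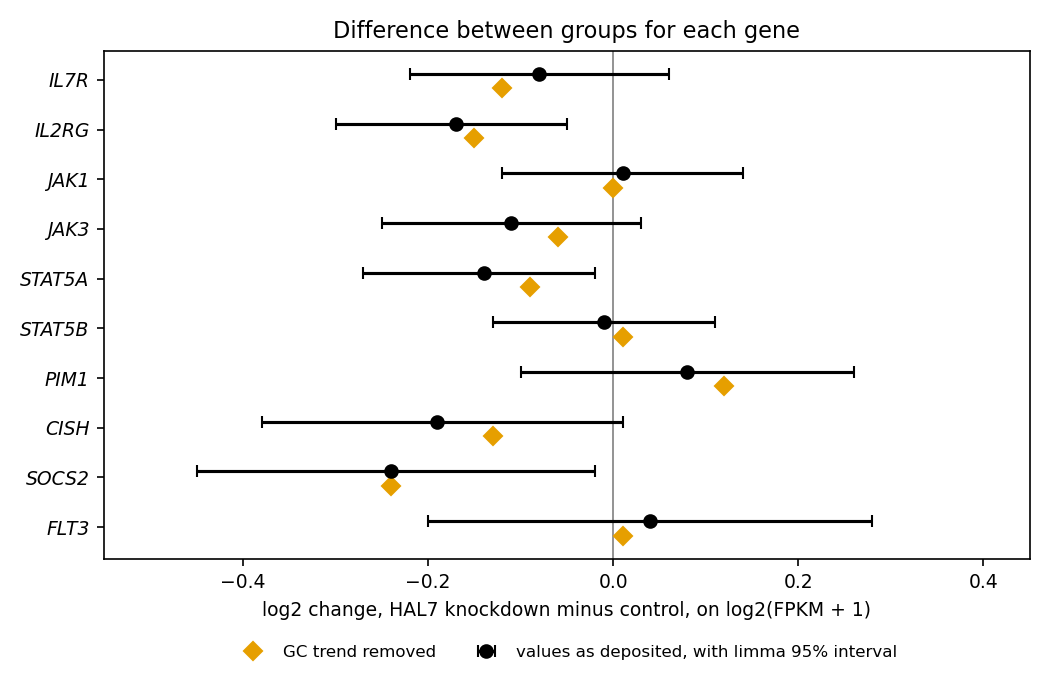
Log2 change on log2(FPKM + 1), HAL7 knockdown minus control (x axis), for the 10 genes (y axis); black points are values as deposited with limma's 95% interval, and orange diamonds the same with the GC trend removed. The intervals of IL2RG, STAT5A and SOCS2 lie below 0 before adjustment, and with the GC trend removed IL2RG, JAK1, JAK3, STAT5A, CISH and FLT3 are nearer to 0, IL7R and PIM1 farther from it, STAT5B on its other side and SOCS2 at -0.24 in both.

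The GC content of transcripts moved with the differences across the whole table. Genes of higher GC content had lower log2 changes, and Spearman's rho between both measures was -0.41 over 12499 genes, all from the same 4 libraries and not independent. The median log2 change was 0.04 in genes of 40 to 45% GC and -0.05 in genes of 55 to 60% GC. JAK3, STAT5A, PIM1 and CISH, at 58.5, 57.8, 56.1 and 58.6% GC, lie in the richer range, and IL7R and FLT3, at 41.2 and 43.1%, in the poorer one. With the trend removed, IL7R had a log2 change of -0.12, further from 0 than before, with an unadjusted limma p of 0.063. IL2RG stood at -0.15, SOCS2 at -0.24 and CISH at -0.13, with unadjusted limma p of 0.023, 0.033 and 0.17.

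**Figure D3:**
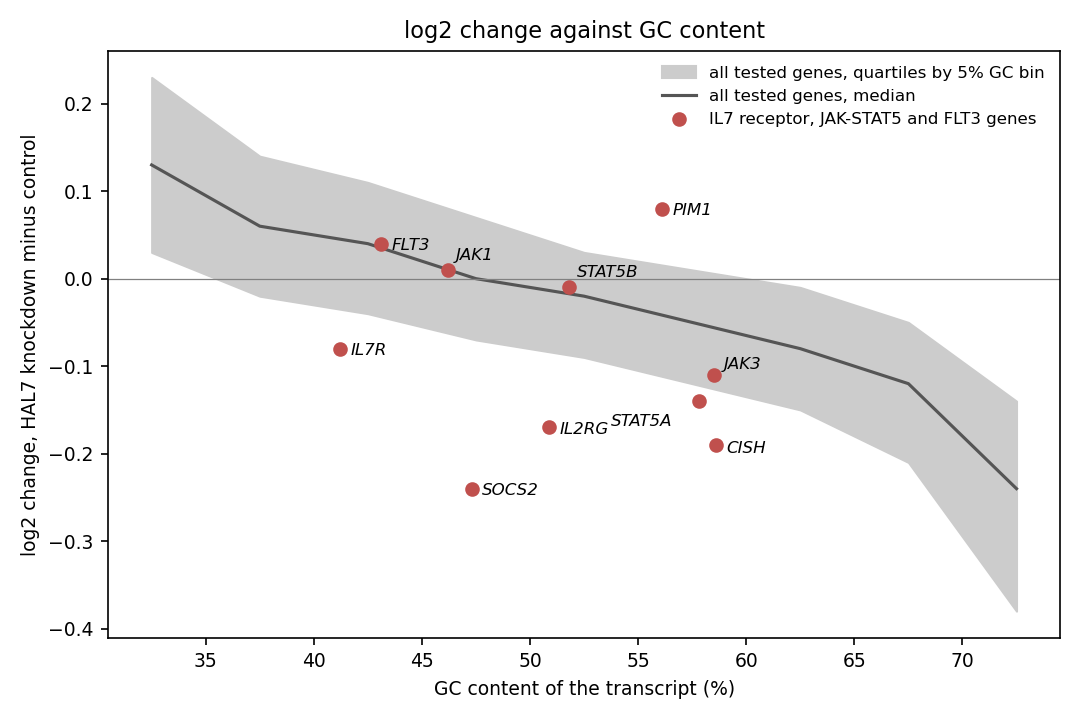
Log2 change, HAL7 knockdown minus control (y axis), against GC content of the transcript in percent (x axis), with the median and quartiles of all tested genes in bins of 5% GC and the 10 genes as points. IL7R, IL2RG, SOCS2, STAT5A and CISH lie below the lower quartile of their bins and PIM1 above the upper one, while FLT3, JAK1, STAT5B and JAK3 lie within the quartiles.

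Other genes of the pathway were read from lists chosen with earlier results of these data known, and in none of these lists did a gene pass limma's adjusted p of 0.05. Ligands of these receptors were low or listed at 0. FLT3LG, the FLT3 ligand, was the only ligand tested, at 3.85 and 3.81 FPKM in knockdown libraries and 4.24 and 4.55 FPKM in control libraries, a ratio of 0.871 with a limma adjusted p of 0.33. IL7 itself was at 0.191 and 0.137 FPKM in knockdown libraries and 0.0969 and 0.0515 FPKM in control libraries. These values did not overlap, at a ratio of 2.21, but lay far under the mean of 1 FPKM asked for testing. With no filter on low values, the log2 change of IL7 was 0.12, with limma p of 0.039 unadjusted and 0.45 adjusted. TSLP, which signals through IL7R and the chain CRLF2, was at 0.111 and 0.119 FPKM in knockdown libraries and 0.199 and 0.131 FPKM in control libraries. IL15 was at 0.240 FPKM in both knockdown libraries and at 0.299 and 0.288 FPKM in control libraries, IL4 reached at most 0.0652 FPKM, and IL2, IL9 and IL21 were listed at 0 throughout.

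Of 10 partner receptor chains 4 were tested, with 2 log2 changes positive and 2 negative and 0 at an unadjusted limma p under 0.05. CSF2RB, the beta chain shared by the IL3, IL5 and GM-CSF receptors, had 17.2 and 16.9 FPKM in knockdown libraries and 18.0 and 16.9 FPKM in control libraries. IL21R, which pairs with the gamma chain, had a ratio of 0.954, and IL4R, its partner for IL4, a ratio of 1.07 with groups that did not overlap. IL2RB, the beta chain of the IL2 and IL15 receptors, was under the limit for testing and is named after its values were seen. It had 0.255 and 0.271 FPKM in knockdown libraries and 0.699 and 0.538 FPKM in control libraries, a ratio of 0.425; with no filter on low values its limma p was 0.0059 unadjusted and 0.43 adjusted. CRLF2, IL3RA, CSF2RA and IL9R were listed at 0 in all 4 libraries, as were other genes that lie on both X and Y, so these zeros cannot be read as low expression.

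Other JAK and STAT genes had 6 of 7 tested, 5 negative and 1 positive, with a median log2 change of -0.11, which was -0.021 without knockdown replicate 1 and -0.074 without control replicate 1. STAT6, which acts below the IL4 receptor, had 80.7 and 82.0 FPKM in knockdown libraries and 87.6 and 89.5 FPKM in control libraries, a ratio of 0.919 with limma p of 0.044 unadjusted and 0.29 adjusted. Its log2 change of -0.12 was -0.07 with the GC trend removed, with an unadjusted limma p of 0.16. STAT2 and the kinase gene TYK2 had ratios of 0.891 and 0.970 and overlapping groups. The inhibitors had 15 of 18 tested, 9 positive and 6 negative, with a median of 0.012, which was -0.009 without knockdown replicate 0 and -0.030 with the GC trend removed. SOCS1, which is also a STAT5 target, had 1.97 and 2.10 FPKM in knockdown libraries and 2.43 and 2.81 FPKM in control libraries, a ratio of 0.776 with limma p of 0.027 unadjusted and 0.25 adjusted; its log2 change of -0.25 was -0.11 with the GC trend removed. SOCS4 was on the other side, at 11.2 and 11.3 FPKM in knockdown libraries and 10.1 and 9.52 FPKM in control libraries, with limma p of 0.020 unadjusted and 0.23 adjusted. SOCS5, named after its values were seen, had a ratio of 1.15. The log2 changes of SOCS4 and SOCS5 were 0.19 and 0.18. With the GC trend removed they were 0.10 and 0.11, with unadjusted limma p of 0.12 and 0.13. PTPN6, the phosphatase SHP-1, stood at 126 and 149 FPKM in knockdown libraries and 123 and 116 FPKM in control libraries. Its ratio was 1.15, with limma p of 0.053 unadjusted and 0.31 adjusted, and its log2 change of 0.20 was 0.26 with the GC trend removed. PTPN2, a phosphatase acting on JAK1 and JAK3, had a ratio of 0.986.

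Other STAT5 target genes had 10 of 13 tested, 4 positive and 6 negative, with a median of -0.014, which was -0.038 without knockdown replicate 0 and -0.027 without control replicate 0; 3 were at an unadjusted limma p under 0.05, all on the lower side, where 9.35% of all tested genes lay. CCND3, the cyclin of early B cell proliferation, had 390.0 and 390.4 FPKM in knockdown libraries and 435 and 436 FPKM in control libraries, a ratio of 0.896 with limma p of 0.017 unadjusted and 0.22 adjusted. The third gene beside CCND3 and SOCS1 was PIM3, a relative of PIM1 named after its values were seen, at a ratio of 0.858. The log2 changes of CCND3, SOCS1 and PIM3 were -0.16, -0.25 and -0.22. With the GC trend removed they were -0.11, -0.11 and -0.10, with unadjusted limma p of 0.061, 0.25 and 0.13. MYC had 383 and 449 FPKM in knockdown libraries and 388 and 366 FPKM in control libraries, which overlapped. FLT3-type receptors and adaptors had 8 of 12 tested and 0 at an unadjusted p under 0.05. The adaptor genes GRB2 and SHC1 had ratios of 0.913 and 0.919, GAB1 1.04, and PDGFRB, a receptor of the same class as FLT3, 0.950.

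The PI3K, AKT and FOXO branch had 13 of 13 tested, 4 positive and 9 negative, with a median of -0.031, which was -0.004 without knockdown replicate 1. TSC2, an inhibitor of mTORC1, had 28.9 and 27.9 FPKM in knockdown libraries and 34.8 and 34.6 FPKM in control libraries, a ratio of 0.819 with limma p of 0.0013 unadjusted and 0.19 adjusted. PIK3CD, the PI3K catalytic subunit of leukocytes, stood at a ratio of 0.897, with an adjusted limma p of 0.29, and INPP5D, the lipid phosphatase SHIP1, at 0.989. Among B cell and pre-B markers the recombinase genes RAG1 and RAG2 had ratios of 0.827 and 0.855 with adjusted limma p of 0.20 and 0.25, while IGLL1 and DNTT had 0.996 and 0.975. T and NK markers had 3 of 13 tested, all negative: NKG7, ZAP70 and LCK. NKG7, a granule gene, had 21.9 and 17.2 FPKM in knockdown libraries and 27.5 and 27.0 FPKM in control libraries, with limma adjusted p of 0.19, and ZAP70, a T cell kinase, a ratio of 0.928. Their part in the values of IL7R and IL2RG was not tested. Monocyte markers had 3 of 10 tested. CD68 had a ratio of 0.744 with an adjusted limma p of 0.24, CSF3R 0.856, and CSF1R, a receptor of the FLT3 class, 1.01.

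**Figure D4:**
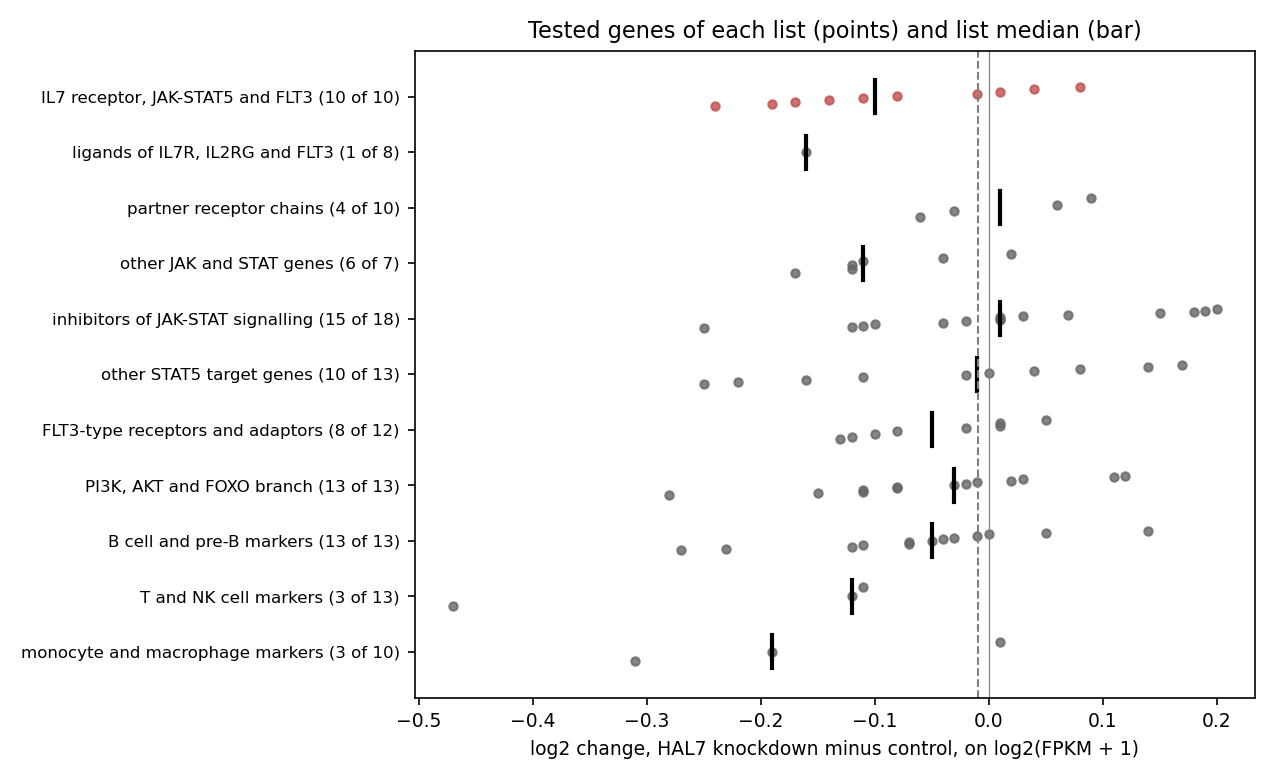
Log2 change, HAL7 knockdown minus control (x axis), of each tested gene (points) by list (y axis, with tested and listed numbers), black bars giving list medians and the dashed line the median of all tested genes, -0.009. The IL7 receptor, JAK-STAT5 and FLT3 genes, in red, have a median of -0.10, and 0 genes in the lists shown passed an adjusted p of 0.05.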

How the data were processed

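Per the labels, 1 µg of total RNA per library was prepared with the TruSeq mRNA kit. The deposited table holds 1 value per gene and library. It names no unit; values were read as FPKM because the header uses Cuffdiff's ID column and, per the submitters' processing notes, the authors used Bowtie2 2.2.5, TopHat2 2.0.14 and Cuffdiff 2.2.1 with hg19. Options and annotation were not stated. Gene names, positions and transcripts come from GENCODE 29 and current symbol tables, on GRCh38 and not on the authors' build; 111 of 113 other list genes matched an ID.

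Knockdown and control were compared with limma 3.58.1 in R 4.3.3 on log2(FPKM + 1). The fit took genes averaging 1 FPKM or more, plus HAL7, and let the variance follow the level; p-values are two-sided and adjusted by Benjamini-Hochberg. Ratios are of mean FPKM. GC content is that of the longest coding transcript, and the GC setting subtracts a smooth curve from each library. Fragment numbers use the step of low FPKM values, found in 1214 genes with 1 transcript of at least 2500 nt; of low values, 79.9% to 85.2% came within 0.15 of whole numbers of steps (30% by chance). The fit was tested on simulated data. Other settings were pseudocounts of 0.1 and 5, other filters, other normalizations, a constant variance, a block for the replicate number, removal of the GC trend, protein-coding genes only and each library left out.

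The members and lists were chosen with earlier results of these data known. Named beside them were the 2 genes of smallest p and the 2 most abundant in each list, and every ligand; others are marked where named, except genes given for being at or near 0, LCK, MAPKAPK3 and SOCS2-AS1.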

Additional observations from a re-analysis of the deposited data

How the results depend on the processing

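Of 147 values of the 10 genes under the 15 other settings, 0 passed an adjusted limma p of 0.05, the lowest being 0.16, and 6 had the other sign, all within 0.04 of 0. These were STAT5B at 0.010 with the GC trend removed, with and without the replicate block, and at 0.002 without control replicate 1, JAK1 at -0.030 without knockdown replicate 0, and FLT3 at -0.023 without knockdown replicate 1 and at -0.036 without control replicate 0. Over all values with 1 library left out, STAT5B ranged between -0.028 and 0.002, JAK1 between -0.030 and 0.05 and FLT3 between -0.036 and 0.12. CISH, SOCS2 and FLT3 were not tested at a mean of at least 5 FPKM. At an unadjusted limma p under 0.05 there were 3 of the 10 genes in the main fit, beside 2148 of all 12935 genes. With the GC trend removed there were 2, beside 1712 of 12499 genes. Over all genes, the 4 calls became 2 with a pseudocount of 0.1, 0 with no filter, 1 at a mean of at least 5 FPKM, 19 with the replicate block, and 11 to 22 with 1 library left out, taking the lone library to have the spread of the remaining group; the cause was not tested. Without filter, 3002 genes had an unadjusted limma p under 0.05. The replicate block changed the call of none of the 10 genes; deviations of same-numbered libraries correlated at 0.122, and the labels do not say that numbers mark a shared culture. In the other lists 1 gene passed in any setting, NKG7 without knockdown replicate 0. FPKM values give no counts, so depth is known only from the steps of low values.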

Other observations

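Of 37 listed genes that GENCODE 29 places on both X and Y, the highest value in any library was 0.0565 FPKM. Of the 18 that are protein-coding, 14 were listed at 0 in all 4 libraries, among them SLC25A6, a mitochondrial ADP/ATP carrier gene that most cells use, and CD99. CRLF2, IL3RA, CSF2RA and IL9R, the cytokine receptor genes named above, are in this set, so the table does not tell whether the second chain of the TSLP receptor was expressed beside the abundant IL7R. PTPRC, which encodes the phosphatase CD45 and was named after its values were seen, lies on chromosome 1 and was listed at 0.0158 and 0 FPKM in knockdown libraries and at 0.0745 and 0.0501 FPKM in control libraries.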
